A study of Homo sapiens with 6 samples.

Results

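Surface antigens whose official gene symbol is a cluster of differentiation (CD) number were followed by ribosome profiling in K562, a cell line of erythroid character derived from a human chronic myelogenous leukemia. Members were every row of the footprint count table whose symbol consists of CD, a number and at most 1 further letter. The rule found 74 of the 19330 genes in the table. A summed count of at least 60 over the 6 libraries was reached by 22 members, which are described here, and 52 fell below it. In Ribo-Seq, a nuclease digests the mRNA that is not covered by ribosomes, and the protected stretches (footprints) are sequenced, so that their number on a gene measures ribosome occupancy. Cells of the sgN6AMT1 group had been transduced with the lentiviral Cas9 vector pLentiCRISPRv2 carrying a guide against *N6AMT1*, and cells of the sgCtrl group with the same vector carrying guides against olfactory receptor genes. Both groups were selected with puromycin for 48 h and analysed on day 10 after infection. Each group had 3 libraries, which per the study's figure legends came from independent lentiviral infections. The labels mention no isolation of clones, and neither the control guide in each sgCtrl library nor the *N6AMT1* guide used is stated. N6AMT1 methylates eRF1, the factor that releases the finished protein at a stop codon.

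CD numbers are given to cell surface molecules by the antibodies that recognise them, and the numbered genes therefore do not form 1 pathway. They include tetraspanins, which are small membrane proteins crossing the membrane several times and organising partner proteins into microdomains. They also include sialylated mucins, proteins held in the membrane by a glycosylphosphatidylinositol (GPI) anchor, and immunoglobulin-type receptors through which leukocytes recognise other cells. Many are used in hematology to assign a cell to the myeloid, lymphoid or erythroid lineage. *CD5L* matched the rule by its symbol although its product is a secreted protein.

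The 6 libraries held between 1821356 and 2969736 counts, and edgeR's quasi-likelihood test was run on the 9202 genes that passed a filter on low counts. Footprints on *N6AMT1* numbered 25, 24 and 34 in sgCtrl against 10, 9 and 8 in sgN6AMT1 (log2 fold change -1.51, SE 0.313, adjusted p = 6.69e-05). The 12 K562 and erythroid markers examined, mostly globins, summed to between 31000 and 32840 counts per 1000000 (CPM) in sgCtrl and between 32360 and 33730 CPM in sgN6AMT1. Within this sum, *HBE1*, *HBA1*, *HBA2* and *TAL1* were higher in sgN6AMT1 and *HBZ*, *GATA1*, *KLF1* and *TFRC* lower. Together 66.7% of the 12 were called at an adjusted p under 0.05, beside 26.9% of all genes tested. Of the markers of other cells, the B cell genes *MS4A1* and *PAX5* and the monocyte genes *CD14* and *CD163* were at 0 in all libraries. The 6 monocyte markers summed to between 51.2 and 61.4 CPM in sgCtrl and between 101.5 and 113.5 CPM in sgN6AMT1, and nearly all of this was lysozyme (*LYZ*), at 50.7, 60.7 and 51.8 CPM against 109.1, 100.2 and 98.8 CPM. The 8 T cell markers, mostly the member *CD3D*, summed to between 36.7 and 44.9 CPM in sgCtrl and between 29.4 and 34.2 CPM in sgN6AMT1. The 6 fibroblast markers summed to between 37.7 and 43.4 CPM in sgCtrl and between 32.4 and 36.9 CPM in sgN6AMT1.

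The 22 members were the same 22 that passed the filter. Of these, 12 (54.5%) were higher in sgN6AMT1 at an adjusted p under 0.05, where 12.9% of all genes tested were higher, and 2 (9.09%) were lower, where 13.9% of all genes were lower. In either direction 14 members (63.6%) passed the threshold, beside 26.9% of all genes tested. A passing test with a log2 fold change of at least 1, counted only for higher in sgN6AMT1, was reached by 7 members (31.8%). Counted in the same way, 2.34% of all genes tested reached it. The 2 lower members, *CD47* and *CD44*, had log2 fold changes of -0.37 and -0.55. The CPM of the groups did not overlap for 14 members (63.6%), beside 37.5% of all genes, and these were the 14 that passed the threshold. Log2 fold changes had a median of 0.235 over the members and 0.006 over all genes, and the median size regardless of sign was 0.461 and 0.209. With DESeq2 as the test, 10 members passed the threshold, and each was higher in sgN6AMT1, beside 12.4% of all genes in either direction. *CD276*, *CD80* and *CD84* reached the filter's minimum in all 3 sgN6AMT1 libraries and in fewer sgCtrl libraries, so that their passing the filter depended on the group in which they were higher, and the counts above lean on them to that extent.

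Summed over all 74 members, footprints came to 1769, 1745 and 1789 CPM in sgCtrl and to 2382, 2363 and 2293 CPM in sgN6AMT1. The groups did not overlap, and the ratio of their means was 1.33. Without *CD24* the means were 1752 ± 17.6 CPM (SD, n = 3) and 2174 ± 30.9 CPM (SD, n = 3), a ratio of 1.24.

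**Figure D1:**
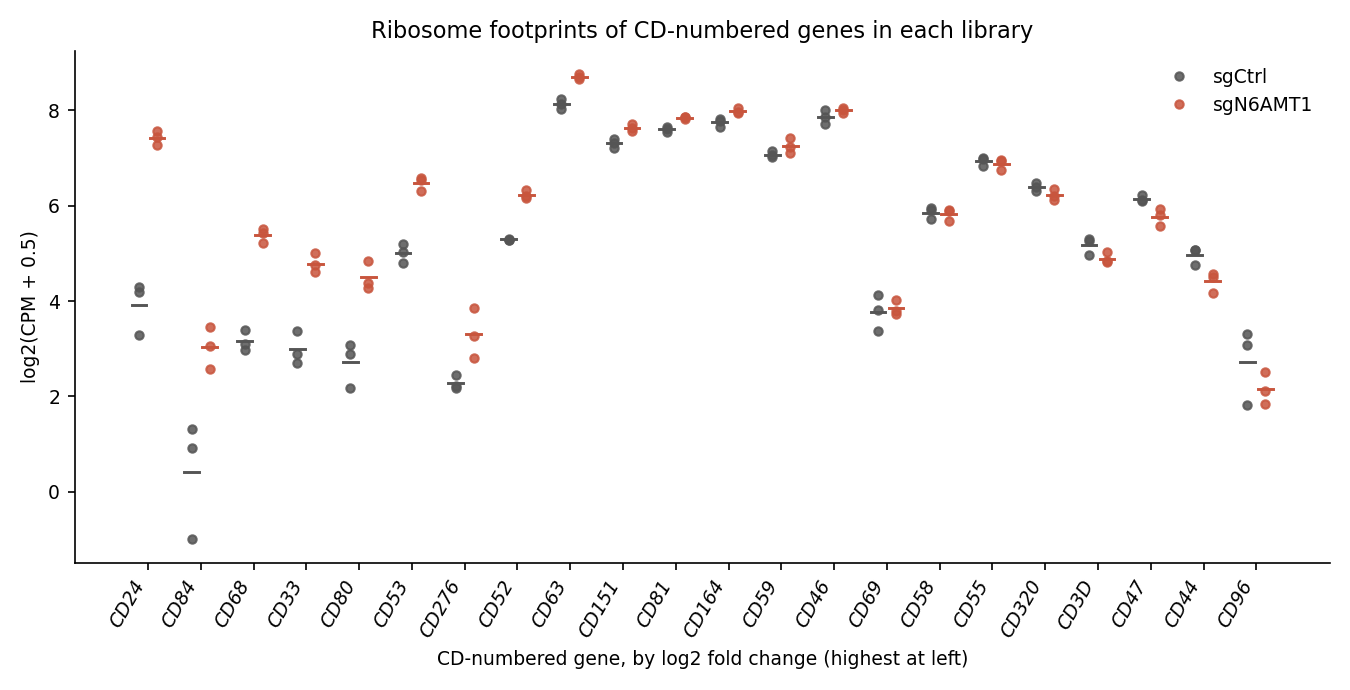
Footprints on the 22 CD-numbered genes with at least 60 counts, as log2(CPM + 0.5) in each of 3 sgCtrl (grey) and 3 sgN6AMT1 (red) libraries; short lines are group means and genes are ordered by log2 fold change. The groups are separate for the 12 genes at the left and for *CD47* and *CD44* near the right end, and they overlap for the other 8.

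The stop codon is shown for the members that passed the threshold, except *CD84*, because eRF1, a substrate of N6AMT1, reads stop codons. Averaged over transcripts, the paper saw no change of ribosome occupancy at stop codons in *N6AMT1*-depleted cells. Each line gives the last 12 coding bases, the stop codon in capitals and the 12 bases after it, taken from GENCODE transcripts, 5′ to 3′.
CD68: taccaggccctcTGAgcatttgcttca
CD33: gtcaggacccagTGAggaacccacaag
CD53: accatagggctaTGAtctgcagtagtc
CD276: caagaaatagccTGAccatgaggacca
CD52: ttctgcttcagtTGAggtgacacgtct
CD151: ctggagcactacTGAccctgccttggg
CD81: agctccgtgtacTGAggccccgcagct
CD63: tacgaggtgatgTAGgggtctggtctc
CD24: catctctactctTAAgagactcaggcc
CD80: gtacgccctgtaTAAcagtgtccgcag
CD164: taccacactctgTAAacagacccattg
CD47: atgaatgatgaaTAActgaagtgaagt
CD44: aagattggggtgTAAcacctacaccat
Among the 21 members with a matched coding sequence, TGA ended 12, TAA ended 6 and TAG ended 3. Over all matched transcripts the shares were 49.2%, 28.6% and 22.2%. Of the members ending in TGA, 7 were higher and 0 lower. Of those ending in TAA, 3 were higher and 2 lower, and of those ending in TAG, 2, including *CD84*, were higher. In either direction 24.7% of all genes tested that end in TGA passed the threshold, 29.4% of those ending in TAA and 27.5% of those ending in TAG. The median log2 fold change of all genes tested was 0.009 for TGA, -0.005 for TAA and 0.027 for TAG.

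All 4 tetraspanins with enough counts, *CD53*, *CD63*, *CD81* and *CD151*, were higher in sgN6AMT1, by 1.18-fold to 2.79-fold of the mean CPM, where 12.9% of all genes tested were higher. *CD53*, a tetraspanin of leukocytes, rose the most of them. It lies at chr1:110873148-110899922 on the plus strand (GRCh38) in 8 exons. Its level was 36.2, 27.2 and 32 CPM in sgCtrl and 95.5, 92.5 and 78.7 CPM in sgN6AMT1 (log2 fold change 1.51, SE 0.123, adjusted p = 6.94e-19). The gap between the groups was wider than the spread within either.

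*CD63*, a tetraspanin of late endosomes, lysosomes and exosomes, was the most abundant member by both CPM and CPM per 1000 coding bases. It measured 301.4, 279.9 and 261.8 CPM in sgCtrl and 416.4, 434.6 and 401.7 CPM in sgN6AMT1 (log2 fold change 0.57, SE 0.0599, adjusted p = 1.46e-13). *CD151*, which associates with laminin-binding integrins, stood at 169.3, 147.6 and 158.7 CPM against 189.4, 197.4 and 209.5 CPM (log2 fold change 0.33, SE 0.0734, adjusted p = 0.000212). *CD81*, a tetraspanin that hepatitis C virus uses to enter cells, had 201.9, 186.5 and 193.7 CPM against 225.7, 232.4 and 230.7 CPM (log2 fold change 0.25, SE 0.0675, adjusted p = 0.00297). The groups did not overlap for any of these genes. The call for *CD81* was lost when trends on coding length and GC content were removed (adjusted p = 0.104).

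The other 3 CD-numbered tetraspanins had fewer than 60 counts. *CD82* came closest to the limit with 7, 6 and 7 counts in sgCtrl and 14, 10 and 12 counts in sgN6AMT1, without overlap (adjusted p = 0.114 in the fit without a filter). *CD9* had 1, 3 and 0 counts against 5, 3 and 5 counts, and *CD37* had 5, 11 and 6 against 5, 14 and 9. Together the 7 tetraspanins summed to 672.1 ± 37.5 CPM (SD, n = 3) in sgCtrl, against 947.0 ± 18.8 CPM (SD, n = 3) in sgN6AMT1. Of 25 tetraspanins in the table that carry other symbols, 6 were tested, of which 3 rose (*TSPAN3*, *TSPAN5* and *TSPAN13*) and 0 fell, beside 12.9% and 13.9% of all genes. *TSPAN13* counted 66, 88 and 65 against 94, 90 and 97 footprints (log2 fold change 0.46, SE 0.137, adjusted p = 0.00617), and *TSPAN3* 102, 153 and 116 against 152, 164 and 129 (log2 fold change 0.37, SE 0.113, adjusted p = 0.00958). With DESeq2, 1 of the 3 passed. The *TSPAN13* call was also lost without sgCtrl library 2 or without sgN6AMT1 library 3, with an adjusted p of up to 0.119 over the alternatives.

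Both antigens of the myeloid group with enough counts were higher in sgN6AMT1, where 12.9% of all genes tested were higher. *CD68* encodes a heavily glycosylated protein of macrophage lysosomes, and *CD33* encodes a sialic acid-binding receptor of myeloid cells. *CD68* had 16, 29 and 15 footprints in sgCtrl and 84, 104 and 78 in sgN6AMT1, which was 8.48 ± 1.36 CPM (SD, n = 3) against 41.4 ± 4.14 CPM (SD, n = 3) (log2 fold change 2.25, SE 0.189, adjusted p = 4.3e-18). *CD33* had 12, 20 and 20 footprints against 72, 61 and 44, or 7.59 ± 2.01 CPM (SD, n = 3) against 27.3 ± 3.92 CPM (SD, n = 3) (log2 fold change 1.86, SE 0.22, adjusted p = 2.25e-11). The lowest sgN6AMT1 library lay above the highest sgCtrl library for both, and neither gene lost its call in any alternative run.

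The 10 myeloid members as a group summed to 16.2 ± 1.46 CPM (SD, n = 3) in sgCtrl, against 69.1 ± 2.0 CPM (SD, n = 3) in sgN6AMT1. Nearly all of this sum came from *CD68* and *CD33*. Of the 10, 6 were at 0 in all libraries, including *CD14*, the lipopolysaccharide co-receptor, and *CD163*, the hemoglobin scavenger receptor. *LYZ* moved in the same direction as the sum, and the part of monocyte-type cells in these differences was not tested. In bulk libraries more cells of a type and more footprints per cell cannot be told apart.

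Promoters are shown for the 3 members that rose by at least 1 on the log2 scale and held the letters searched for PU.1, a transcription factor of myeloid cells. Each runs from 250 bases before to 50 bases after the annotated start, from RefSeq on GRCh38.p14, 5′ to 3′ on the gene's strand. They are chr17:7579388-7579687 (plus strand) for *CD68*, chr19:51224830-51225129 (plus strand) for *CD33* and chr1:110872898-110873197 (plus strand) for *CD53*. Capitals mark GAGGAA or its reverse complement.
CD68 promoter: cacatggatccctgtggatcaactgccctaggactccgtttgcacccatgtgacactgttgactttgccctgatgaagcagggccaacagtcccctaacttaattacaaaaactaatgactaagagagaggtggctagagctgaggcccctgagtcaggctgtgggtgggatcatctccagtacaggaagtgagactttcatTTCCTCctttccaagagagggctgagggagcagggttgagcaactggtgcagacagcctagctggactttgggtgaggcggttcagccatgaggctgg
CD33 promoter: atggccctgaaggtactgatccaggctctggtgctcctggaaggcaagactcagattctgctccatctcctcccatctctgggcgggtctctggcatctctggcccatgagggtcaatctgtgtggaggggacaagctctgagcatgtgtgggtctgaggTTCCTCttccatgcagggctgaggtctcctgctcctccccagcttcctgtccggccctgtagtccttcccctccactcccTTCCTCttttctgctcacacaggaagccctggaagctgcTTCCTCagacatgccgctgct
CD53 promoter: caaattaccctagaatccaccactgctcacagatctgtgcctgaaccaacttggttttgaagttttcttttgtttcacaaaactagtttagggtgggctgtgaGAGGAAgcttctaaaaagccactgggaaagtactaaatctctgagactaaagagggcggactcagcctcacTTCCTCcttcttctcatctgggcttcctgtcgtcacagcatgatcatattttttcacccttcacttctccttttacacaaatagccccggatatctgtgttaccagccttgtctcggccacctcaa
Promoter sequences matched 17 of the 22 members. GAGGAA on either strand was present in 8 of these 17 (*CD68*, *CD33*, *CD53*, *CD52*, *CD63*, *CD164*, *CD58* and *CD3D*) and in 27.9% of 35116 promoters of the same length. It was in 3 of the 6 matched members that rose by at least 1. AGATAA, searched for GATA factors, was in 0 of the 17 and in 10.3% of all promoters. TTCNNNGAA, searched for STAT factors, was in the *CD96* promoter alone and in 7.66% of all promoters. No match of one motif overlapped a match of another in these promoters. A match is a description of the letters and not a measured binding site.

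Immune ligands and receptors of low level rose as well, with 3 of 4 tested members of the costimulation and checkpoint group higher and 0 lower, beside 12.9% of all genes higher. These 3, *CD80*, *CD84* and *CD276*, are the members that reached the filter's minimum in more sgN6AMT1 than sgCtrl libraries, so the count of 3 in 4 is a description only. *CD80*, the ligand of CD28 and CTLA4 on antigen-presenting cells, had 8, 23 and 14 footprints in sgCtrl and 43, 47 and 52 in sgN6AMT1 (log2 fold change 1.76, SE 0.243, adjusted p = 4.76e-09). *CD84*, a self-binding receptor of the SLAM family, had 0, 4 and 4 footprints against 24, 18 and 10 (log2 fold change 2.74, SE 0.467, adjusted p = 1.3e-06). Its summed count of exactly 60 was the lowest among the members described, and *CD82*, with 56, was the highest below the limit. *CD276*, a B7 family member also called B7-H3, had 8, 12 and 10 footprints against 32, 21 and 12 (log2 fold change 1.21, SE 0.321, adjusted p = 0.00216). The lowest sgN6AMT1 library of *CD276*, at 6.51 CPM, was close to the highest sgCtrl library, at 4.93 CPM. The *CD276* call was lost with DESeq2 and without sgN6AMT1 library 1 (highest adjusted p over these alternatives, 0.0898).

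*CD69*, an early activation antigen of lymphocytes, was the member of this group that did not pass, at 13.5 ± 3.61 CPM (SD, n = 3) in sgCtrl, against 13.9 ± 1.59 CPM (SD, n = 3) in sgN6AMT1 (adjusted p = 0.919). The 95% interval of its log2 fold change ran from -0.40 to 0.49. The 13 members of the group summed to 26.7 ± 1.98 CPM (SD, n = 3) and 55.8 ± 4.57 CPM (SD, n = 3), and 5 of them were at 0 in all libraries. *CD48*, a GPI-anchored relative of CD84, had 0 footprints in every sgCtrl library and 3, 1 and 4 in the sgN6AMT1 libraries. Of the 23 members under 60 counts that had any footprint, it alone passed in the fit without a filter (adjusted p = 0.0273), where 18.3% of all genes passed, and its counts were too low for a fold.

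**Figure D2:**
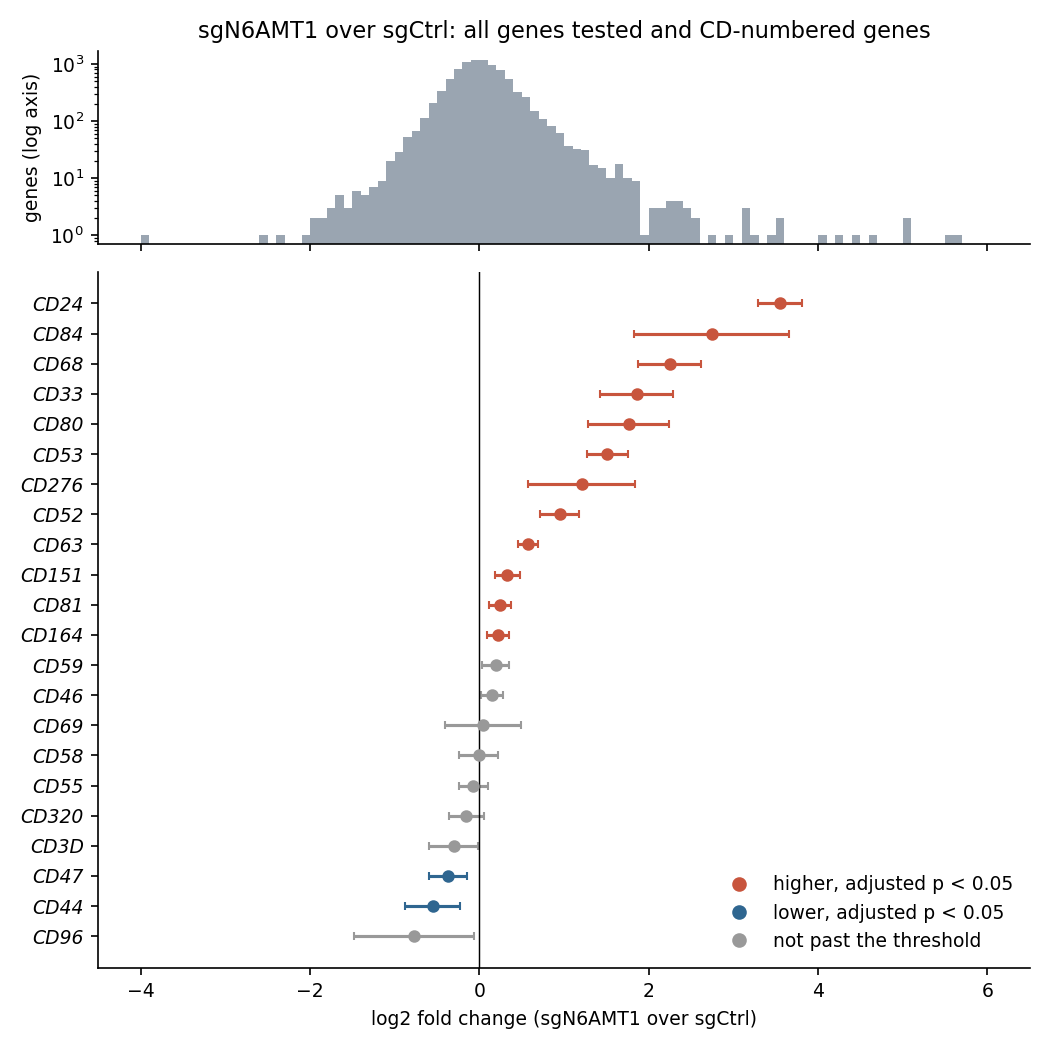
Log2 fold changes (sgN6AMT1 over sgCtrl) of all 9202 genes tested (upper panel, number of genes on a log axis) and of the 22 CD-numbered genes (lower panel, points with 95% intervals). Between the 5th and 95th percentile, all genes lay from -0.53 to 0.71, and 8 of the 22 members lay above that range, from *CD24* at 3.55 to *CD52* at 0.95, and 2 lay below it, *CD96* at -0.77 and *CD44* at -0.55.

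Among the 10 genes of the GPI-anchored and complement group, 5 were tested. Of these, *CD24* and *CD52* were higher and 0 were lower, beside 12.9% and 13.9% of all genes tested. *CD24*, a small mucin-like sialoglycoprotein on a GPI anchor, had the largest fold change of the members, from 19.1, 9.31 and 17.7 CPM in sgCtrl to 188.5, 172.4 and 154.2 CPM in sgN6AMT1 (log2 fold change 3.55, SE 0.133, adjusted p = 4.71e-38). Per 1000 coding bases its mean level went from 39.4 ± 13.6 CPM (SD, n = 3), the thirteenth of 21 members, to 440.2 ± 44 CPM (SD, n = 3), where only *CD63* was higher. These places depend on the coding length used for *CD24*, which was the 390 bases of its matched transcript. GENCODE annotates 4 copies of *CD24* elsewhere in the genome (*CD24P1*, *CD24P2*, *CD24P4* and *CD24P5*), and how reads shared with them were assigned is uncertain. The same holds for *CD46* and *CD84*, each with 1 annotated copy.

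*CD52* encodes one of the shortest known surface glycoproteins, a peptide of leukocytes and of the male genital tract that is recognised by the antibody alemtuzumab. It lies at chr1:26317958-26320523 on the plus strand in 2 exons. Its coding sequence of 186 bases, the shortest among the members, is shown whole from GENCODE with the start and stop codons in capitals.
CD52: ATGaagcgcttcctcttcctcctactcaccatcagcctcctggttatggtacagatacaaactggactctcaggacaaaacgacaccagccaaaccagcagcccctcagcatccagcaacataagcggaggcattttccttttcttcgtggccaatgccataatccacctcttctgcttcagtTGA
Footprints on *CD52* were 39.2, 38.6 and 38.5 CPM in sgCtrl and 79.8, 71.3 and 73.3 CPM in sgN6AMT1 (log2 fold change 0.95, SE 0.118, adjusted p = 1.58e-10). The sgCtrl libraries lay within 1 CPM of each other and well below all sgN6AMT1 libraries.

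The complement regulators did not pass the threshold. *CD59*, the GPI-anchored inhibitor of the membrane attack complex, had 141.1, 133.4 and 128.7 CPM in sgCtrl and 171.4, 150.8 and 136.8 CPM in sgN6AMT1 (log2 fold change 0.19, SE 0.0813, adjusted p = 0.0653), and the groups overlapped. *CD46*, a transmembrane cofactor for the cleavage of complement C3b and C4b, had 208.5, 232.4 and 255.4 CPM against 266.1, 256.6 and 245.9 CPM (log2 fold change 0.14, SE 0.0666, adjusted p = 0.0999). Each passed in 3 of 15 alternatives, among them total counts without TMM factors. *CD55*, the GPI-anchored decay-accelerating factor, stood at 122.7 ± 7.59 CPM (SD, n = 3) and 117.3 ± 9.02 CPM (SD, n = 3), with an interval of its log2 fold change from -0.24 to 0.10. *CD58*, the ligand of CD2, stood at 57.6 ± 4.98 CPM (SD, n = 3) and 56.4 ± 5.15 CPM (SD, n = 3), with an interval from -0.24 to 0.22.

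The enzymes that build and attach GPI anchors were read alongside these antigens. Of 22 tested, 1 was higher (*PGAP3*) and 1 lower (*PIGS*), or 9.09%, beside 26.9% of all genes. *PIGS*, a subunit of the transamidase that joins proteins to the anchor, had 224, 325 and 246 footprints in sgCtrl and 157, 185 and 155 in sgN6AMT1 (log2 fold change -0.57, SE 0.0963, adjusted p = 9.78e-07). *PGAP3*, which remodels the lipid of the anchor, was low, with 4, 7 and 8 footprints against 16, 16 and 10. Only the sgN6AMT1 libraries, in which it was higher, brought *PGAP3* past the count filter, so its call is a description only. The *PGAP3* call depended on the setting, since 0 enzymes were higher with DESeq2 and without sgCtrl library 1, sgCtrl library 2 or sgN6AMT1 library 2.

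Adhesion molecules went in both directions: of 5 tested, 1 was higher and 2 were lower, beside 12.9% and 13.9% of all genes tested. *CD164*, a sialomucin of hematopoietic progenitors also called endolyn, had 201.9, 220.6 and 226.3 CPM in sgCtrl and 248.1, 247.1 and 264.9 CPM in sgN6AMT1 (log2 fold change 0.22, SE 0.066, adjusted p = 0.00617). *CD47*, the ligand through which cells inhibit phagocytosis by way of SIRPA, had 74.3, 68.3 and 69 CPM against 60.9, 47.1 and 55.4 CPM (log2 fold change -0.37, SE 0.115, adjusted p = 0.0095). *CD44*, the hyaluronan receptor, had 26.6, 33.1 and 33 CPM against 22.4, 23.3 and 17.4 CPM (log2 fold change -0.55, SE 0.165, adjusted p = 0.00692). The groups did not overlap for any of the 3, but the gaps were narrow. All 3 calls were lost with DESeq2, and each was lost without 1 library: *CD164* without sgCtrl library 1, *CD47* without sgN6AMT1 library 2 and *CD44* without sgCtrl library 2. With trends on coding length and GC content removed, *CD164* had a log2 fold change of 0.14 (adjusted p = 0.0738). The highest adjusted p over the alternatives was 0.076 for *CD164*, 0.131 for *CD47* and 0.109 for *CD44*. The endolysosomal group shares members with these: its 3 tested genes, *CD63*, *CD68* and *CD164*, all rose, where 12.9% of all genes tested were higher. Its 10 genes in the table summed to 505.8 ± 8.96 CPM (SD, n = 3) in sgCtrl against 712.5 ± 12.8 CPM (SD, n = 3) in sgN6AMT1. Nearly all of this sum came from the same 3 genes. The 12 adhesion members in the table together summed to 385.2 ± 17.8 CPM (SD, n = 3) and 392.1 ± 5.87 CPM (SD, n = 3), with overlap.

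Of the T cell group, *CD3D* and *CD96* were tested and neither passed. Antigens of lymphocytes or of leukocytes at large were also placed in other groups. Among those, *CD52* and *CD53* were higher in sgN6AMT1 and *CD69* did not pass. *CD3D*, a subunit of the T cell receptor complex, was at 30.6, 37.6 and 39 CPM in sgCtrl and 27.6, 28.1 and 32 CPM in sgN6AMT1 (log2 fold change -0.31, SE 0.146, adjusted p = 0.114). It passed as lower with trends on coding length and GC content removed (log2 fold change -0.40, adjusted p = 0.0205). Other defining T cell genes were near 0, since *CD247*, *CD8A* and *LCK* had 0 footprints in all libraries and *CD3E* had 0, 4 and 0 against 0, 1 and 0. *CD3G* had 5, 7 and 4 footprints against 2, 3 and 1, and *TRAC*, the constant part of the T cell receptor alpha chain, had 7, 9 and 8 against 2, 2 and 3, both without overlap. *CD96*, a receptor of T and natural killer cells, had 6, 23 and 19 footprints against 7, 12 and 7 (log2 fold change -0.77, SE 0.363, adjusted p = 0.108), and the sgCtrl libraries spread over the whole range of the sgN6AMT1 libraries. It passed without sgCtrl library 1. No member of the B cell group had enough counts to be tested. *CD320*, the receptor for transcobalamin-bound vitamin B12, measured 83.8 ± 4.56 CPM (SD, n = 3) and 74.6 ± 6.0 CPM (SD, n = 3), with overlap (adjusted p = 0.282).

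**Figure D3:**
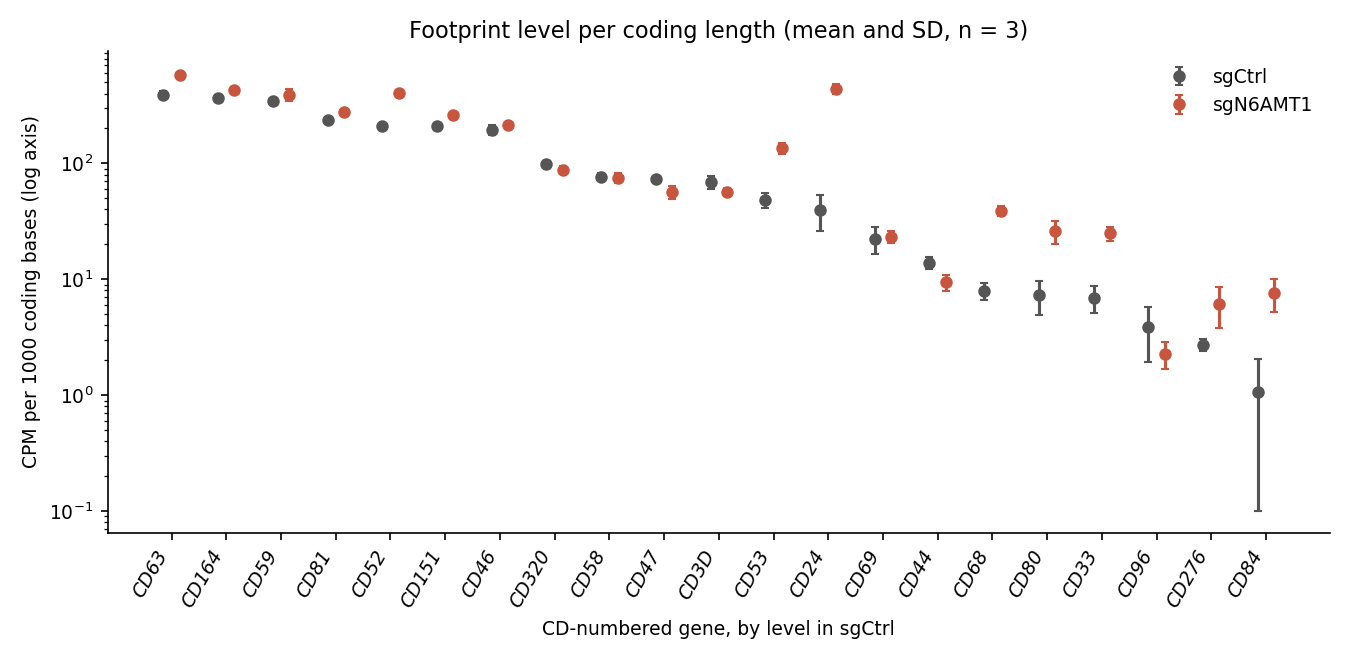
Footprint level per coding length of the 21 CD-numbered genes with a matched coding sequence, as CPM per 1000 coding bases on a log axis, with the mean and SD of 3 sgCtrl (grey) and 3 sgN6AMT1 (red) libraries; genes are ordered by their level in sgCtrl. *CD24* goes from 39.4 to 440.2 and is then second to *CD63*, at 582.4.

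Levels were compared between genes per 1000 coding bases. In sgCtrl, *CD63* was first at 392 ± 27.6 CPM (SD, n = 3), followed by *CD164* at 364.1 ± 21.5 CPM (SD, n = 3) and *CD59* at 342 ± 16.0 CPM (SD, n = 3), neighbours that lay within about their SDs of each other. *CD81* came next at 235.2 ± 9.35 CPM (SD, n = 3), then *CD52* at 208.3 ± 2.05 CPM (SD, n = 3) and *CD151* at 208 ± 14.3 CPM (SD, n = 3), which did not differ beyond their spread. *CD84* was last at 1.08 ± 0.975 CPM (SD, n = 3). In sgN6AMT1 the first 5 were *CD63* at 582.4 ± 23.0 CPM (SD, n = 3), *CD24* at 440.2 ± 44 CPM (SD, n = 3), *CD164* at 426.6 ± 16.8 CPM (SD, n = 3), *CD52* at 402 ± 23.9 CPM (SD, n = 3) and *CD59* at 389.3 ± 44.3 CPM (SD, n = 3). The last 4 of these lay within the SD of a neighbour.

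Large fold changes were found among the members of low level in sgCtrl. The 7 members that rose by at least 1 had sgCtrl means between 1.12 and 31.8 CPM. The 10 members over 50 CPM in sgCtrl had log2 fold changes between -0.37 and 0.57. This order is a description only, because the sgCtrl level is also the denominator of the fold change. In addition, *CD276*, *CD80* and *CD84* passed the filter through the sgN6AMT1 libraries. In sgN6AMT1, *CD24* was not low, at a mean of 171.7 CPM. Coding sequences of the members ranged from 186 to 2229 bases with a median of 825, shorter than the median of 1395 over all genes tested, and their median GC content was 49.7% against 50.9%. The 21 located members lay on 8 chromosomes, with 5 on chromosome 1 and 5 on chromosome 11.

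The 52 members below 60 counts were mostly silent: 29 had 0 footprints in all 6 libraries, 15 had between 1 and 9 in all, and 8 had 10 or more. *CD34*, the antigen of hematopoietic stem cells, *CD38*, an ectoenzyme of plasma cells, and *CD14* were among those at 0, and a count of 0 allows up to 3 counts in a library. Groups did not overlap for 6 of the 52, where 37.5% of the deeper genes tested did not overlap. Of these 6, *CD9*, *CD48*, *CD72*, *CD82* and *CD180* were higher in sgN6AMT1 and *CD3G* was lower. Except for *CD48*, none of them passed in the fit without a filter. *CD36*, a scavenger receptor for fatty acids, had 1, 5 and 3 counts against 1, 2 and 0.

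CD antigens whose genes carry another symbol were also counted, to set the numbered genes beside the rest of the nomenclature. Of 158 in the table, 63 were tested, of which 30 were higher, 8 were lower and 25 did not pass (60.3% called, beside 26.9% of all genes). Their median log2 fold change was 0.264. The 2 highest of these with a mean of at least 10 CPM were *FCGR1A* (CD64), the high-affinity receptor for immunoglobulin G, which reached the filter's minimum in the sgN6AMT1 libraries alone, with 3, 0 and 2 footprints in sgCtrl and 52, 39 and 39 in sgN6AMT1 (log2 fold change 4.70, SE 0.403, adjusted p = 1.26e-17), and *SEMA7A* (CD108), a GPI-anchored semaphorin, with 22, 45 and 25 against 118, 149 and 126 (log2 fold change 2.20, SE 0.156, adjusted p = 2.68e-22). The 2 lowest were *MCAM* (CD146), an endothelial adhesion molecule, with 90, 138 and 94 against 34, 43 and 44 (log2 fold change -1.30, SE 0.154, adjusted p = 2.02e-11), and *FGFR3* (CD333), a fibroblast growth factor receptor, with 44, 47 and 38 against 14, 23 and 12 (log2 fold change -1.29, SE 0.242, adjusted p = 1.03e-05). No test was made of these lists against each other.

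**Figure D4:**
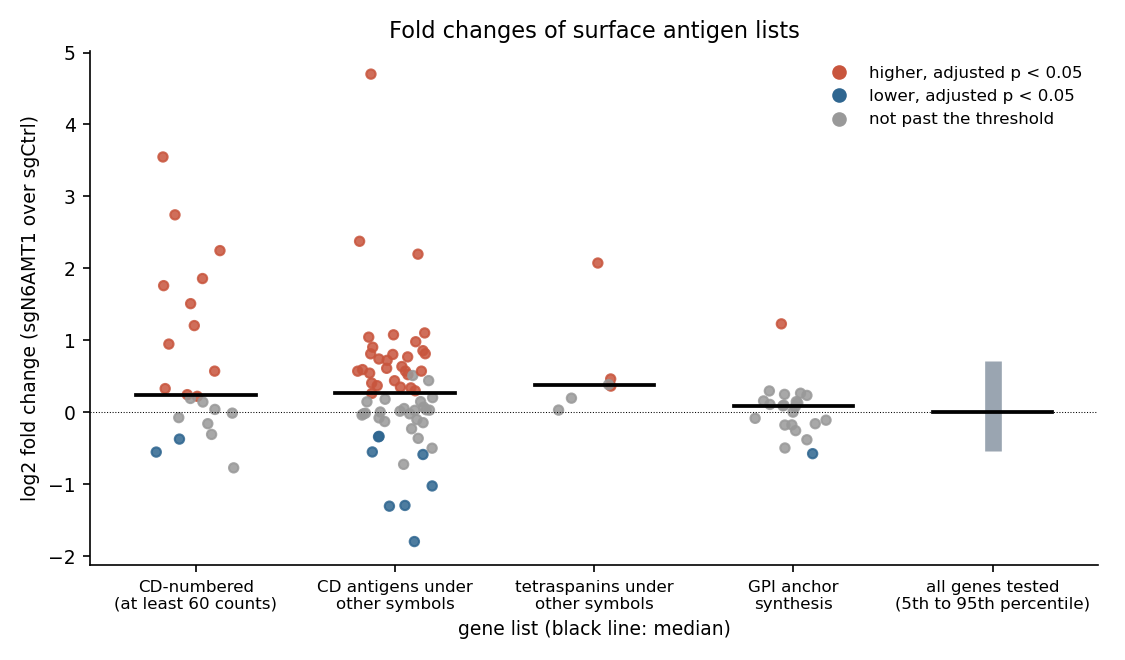
Log2 fold changes (sgN6AMT1 over sgCtrl) of the tested genes of 4 lists, with 1 point a gene coloured by its call and the list median as a black line, beside the 5th to 95th percentile (grey bar) and median of all genes tested. The medians of the CD-numbered genes (0.235) and of antigens under other symbols (0.264) lie above that of all genes (0.006), and both lists hold genes that fell.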

How the data were processed

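Per the study's methods, the authors trimmed reads with cutadapt, kept footprint-sized reads, aligned these to GRCh38 using HISAT2, removed reads on rRNA and tRNA, aligned the rest with Bowtie2 to 1 canonical transcript per gene and assigned P-sites with riboWaltz. They also counted overlaps with an annotation, and which of these the deposited counts are is not stated. The deposited counts were whole numbers per transcript, neither normalized nor pooled, with totals of 1821356 to 2969736 per library. Libraries were amplified by PCR and molecular identifiers are not mentioned, so that intervals from counting alone could be too narrow. The intervals given here rest on the spread between libraries. Footprints depend on mRNA abundance as well as translation, and RNA sequencing was not used here.

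Genes were filtered with filterByExpr (minimum 10 counts), leaving 9202 genes and removing 0.465% of counts, normalized by TMM factors and tested with edgeR 4.0.16 in R 4.3.3 (glmQLFit, robust, 2-sided, no covariate). Adjusted p are Benjamini-Hochberg over the genes tested, with a threshold of 0.05. CPM are per 1000000 counts of the TMM-adjusted library size. The common biological coefficient of variation was 4.36%. Alternatives were DESeq2 1.42.0, voom from limma 3.58.1, upper-quartile and RLE factors, library totals alone, no filter, a mean of at least 50 counts, the replicate number as a block, each library left out in turn and, added after seeing the data, removal of loess trends on coding length and GC content (span 0.5). In simulated data for this comparison, edgeR recovered 88.89% of 99 genes changed by 1 on the log2 scale and 59% of 100 changed by 0.5 among 9184 tested, and 10 of its 157 calls (6.369%) were false. The DESeq2 recovery was 77.78% and 39%. Every simulated gene had the same coefficient of variation of 4.36%, and far fewer genes were changed than passed the threshold here. These rates therefore need not hold for low or variable genes. P-values measure the spread between these libraries.

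Transcripts were matched by identifier to GENCODE release 44 on GRCh38 (17687 of 19330, or 91.5%, 17537 with a coding sequence). *CD55* was not matched. Promoters came from RefSeq. The members, role groups and lists were chosen with earlier results of these data known, and no set test was run. Values in every library are given for the members past the threshold and for the 5 highest by CPM and by CPM per 1000 coding bases. Outside the members, *N6AMT1* was named, and for each list under other symbols up to 2 genes at each end that passed the test and averaged at least 10 CPM. *TSPAN5*, *PGAP3*, the cell type markers and members below 60 counts were named in addition, after their values had been seen.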

Additional observations from a re-analysis of the deposited data

How the results depend on the processing

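Over 15 alternatives, *CD24*, *CD84*, *CD68*, *CD33*, *CD80*, *CD53*, *CD52*, *CD63* and *CD151* passed in each alternative that tested them, and no member past the threshold changed direction. The sign turned for a pair of members near 0. *CD58* (log2 fold change -0.01) was at 0.002 with upper-quartile factors, 0.045 with total counts only, 0.017 with a mean of at least 50 counts, and between -0.094 and 0.053 with a library left out. *CD69* (0.04) was between -0.116 and 0.21 with a library left out. With DESeq2, 588 genes were higher and 741 lower, and 0 members were lower. It also called 1 of the other-symbol tetraspanins higher and 0 GPI enzymes higher. The number of members lower ranged from 1 to 3 with a library left out, with 1 without sgCtrl library 2 or sgN6AMT1 library 2 and 3 without sgCtrl library 1. GPI enzymes higher numbered 2 with limma-voom, with upper-quartile factors and with total counts only, and ranged from 0 to 1 with a library left out. GPI enzymes lower ranged from 1 to 3 with a library left out and numbered 3 with the trends on coding length and GC content removed, a setting chosen after seeing the data. The median log2 fold change of the members was 0.290 with total counts only and 0.135 with these trends removed. The summed level of all members in sgCtrl was 1727 CPM with total counts only. The summed level in sgN6AMT1 without *CD24* was 2174 CPM with TMM factors. The cause of these differences was not tested.

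The replicate numbers did not pair the libraries: deviations of same-numbered libraries correlated at -0.0612, 0.0198 and 0.0162 across genes. With the replicate block, 1167 genes were higher and 1223 lower, and 12 members were higher and 2 lower. Members below 60 counts were too shallow for a fold.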
